A study of Mus musculus with 10 samples.

Results

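The genes described here are 10 immediate early genes, Fos, Fosb, Jun, Junb, Egr1, Ier2, Ier3, Nr4a1, Nr4a3 and Btg2, chosen by name among the 15883 genes of a count table. All 10 are in the table. The table comes from RNA-seq of the biceps femoris, a hindlimb muscle, in 5 transgenic and 5 wild-type male C57BL/6J mice. The transgenic mice carry Zfp407, a zinc finger protein, as a transgene, and the wild-type mice do not. All mice were 5 weeks old, ate normal chow and had been fasted for 16 hours. The promoter of the transgene and the number of founder lines were not given in the sources used here. The title of the series ties the transgene to glucose homeostasis.

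Immediate early genes are transcribed within minutes of a stimulus, from factors already present in the cell and without new protein synthesis. Growth factors, calcium and stress reach them through MAP kinases and through the factors SRF and CREB, and most of their transcripts are short-lived. Fos and Jun proteins pair to form AP-1, a transcription factor. Egr1 is a zinc finger factor that is held back by the NAB corepressors, and Nr4a1 and Nr4a3 are orphan nuclear receptors. In skeletal muscle, contraction and exercise are known to induce Fos, Jun, Egr1 and the Nr4a receptors.

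Promoter sequence, which the choice of the members did not use, was examined as a feature that they may share. RefSeq promoter sequences (GRCm38.p6, 250 bases before to 50 after the start) were matched for 8 of the 10 members, all except Egr1 and Ier2. The searched element TGACG, or CGTCA on the other strand, is the core of the CRE site that CREB binds, and is in capitals below. Fos (chr12:85473640-85473939, plus strand), Nr4a1 (chr15:101266596-101266895, plus strand) and Nr4a3 (chr4:48045055-48045354, plus strand) are printed because they represent AP-1 and the nuclear receptors. The 3 were chosen after the matches were seen. The Nr4a1 window lies at a start inside the annotated span of the gene.
Fos: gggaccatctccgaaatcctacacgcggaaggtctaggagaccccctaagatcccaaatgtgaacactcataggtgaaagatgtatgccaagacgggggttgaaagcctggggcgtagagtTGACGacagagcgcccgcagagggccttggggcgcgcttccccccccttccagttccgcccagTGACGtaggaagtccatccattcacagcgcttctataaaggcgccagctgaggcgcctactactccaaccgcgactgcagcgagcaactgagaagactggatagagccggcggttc
Nr4a1: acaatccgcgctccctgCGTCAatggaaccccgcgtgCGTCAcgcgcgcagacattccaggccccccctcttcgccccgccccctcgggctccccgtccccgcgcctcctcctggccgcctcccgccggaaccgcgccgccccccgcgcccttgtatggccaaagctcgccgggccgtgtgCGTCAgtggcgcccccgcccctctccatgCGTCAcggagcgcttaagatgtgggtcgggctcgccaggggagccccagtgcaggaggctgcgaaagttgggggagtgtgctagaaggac
Nr4a3: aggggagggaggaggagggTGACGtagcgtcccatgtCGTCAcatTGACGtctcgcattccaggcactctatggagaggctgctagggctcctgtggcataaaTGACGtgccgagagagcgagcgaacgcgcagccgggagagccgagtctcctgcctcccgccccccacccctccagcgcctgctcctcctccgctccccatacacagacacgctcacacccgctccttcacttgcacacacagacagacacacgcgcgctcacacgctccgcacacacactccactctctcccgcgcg
Fos held 2 matches, Nr4a1 held 4 and Nr4a3 held 4. At least 1 match was found in 6 of the 8 member promoters, Fos, Fosb, Junb, Nr4a1, Nr4a3 and Btg2, beside 20.8% of 32851 promoters of the same length. The full palindrome TGACGTCA, which contains the shorter element, was in 1 of 8, Btg2, beside 1.79% of promoters. The EGR motif GCGNGGGCG, on either strand, was in 3 of 8, Btg2, Fosb and Nr4a1, beside 5.55%. TATAAA on the gene's strand was in 2 of 8, Fos and Junb, beside 8.32%. The AP-1 motif TGANTCA (7.81% of promoters), the CArG box of SRF (1.63%) and the ETS motif CCGGAAG (8.86%), each sought on both strands, were in 0 of 8. A match is a description of these windows and not a binding site. Sequence farther than 250 bases before the start, and the promoters of Egr1 and Ier2, were not searched, so 0 matches does not mean that a gene lacks the site.

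Total counts were 15162400 to 19047834 per library in the transgenic group and 13530367 to 17814900 in wild type. Levels are CPM, the usual count scaled to sequencing depth, with library totals adjusted by the TMM method. Zfp407 was at 317 to 616 CPM in transgenic libraries, against 21.0 to 25.7 CPM in wild type, a log2 fold change of 4.41 ± 0.19 (SE; adjusted p = 8.15e-08 in edgeR). The 10 fibre markers, Acta1 and Ckm among them, summed to 156447 to 190257 CPM in transgenic libraries and 185427 to 255293 CPM in wild type. Libraries are numbered as in the columns of the table, which name the group of a library but not the mouse. In whole muscle, a lower value cannot be split into fewer cells of a type and less RNA per cell.

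No member differed between the groups past the threshold. In the quasi-likelihood test of edgeR, 5.33% of 13338 genes had an adjusted p under 0.05, 4.28% higher and 1.05% lower in the transgenic group. The 9 members that passed the filter on low counts gave 0 calls, and 0 of them had an unadjusted p under 0.05, beside 18.1% of all genes tested. A count of 0 calls among 9 is close to the background share. Fosb was left out by that filter. DESeq2 also called 0 members, and the authors' deposited table lists 0 of the 10 with an adjusted p under 0.05 (7.29% of its rows pass). The transgenic and wild-type libraries overlapped in all 10 members. Of all genes tested, 8.04% had groups that did not overlap, so 0 among 10 is also close to the background share. The median log2 fold change of the 9 members was 0.13, with 6 fitted higher and 3 lower, beside a median of 0.003 over all genes tested. The lowest adjusted p of any member in any alternative fit was 0.0803.

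**Figure D1:**
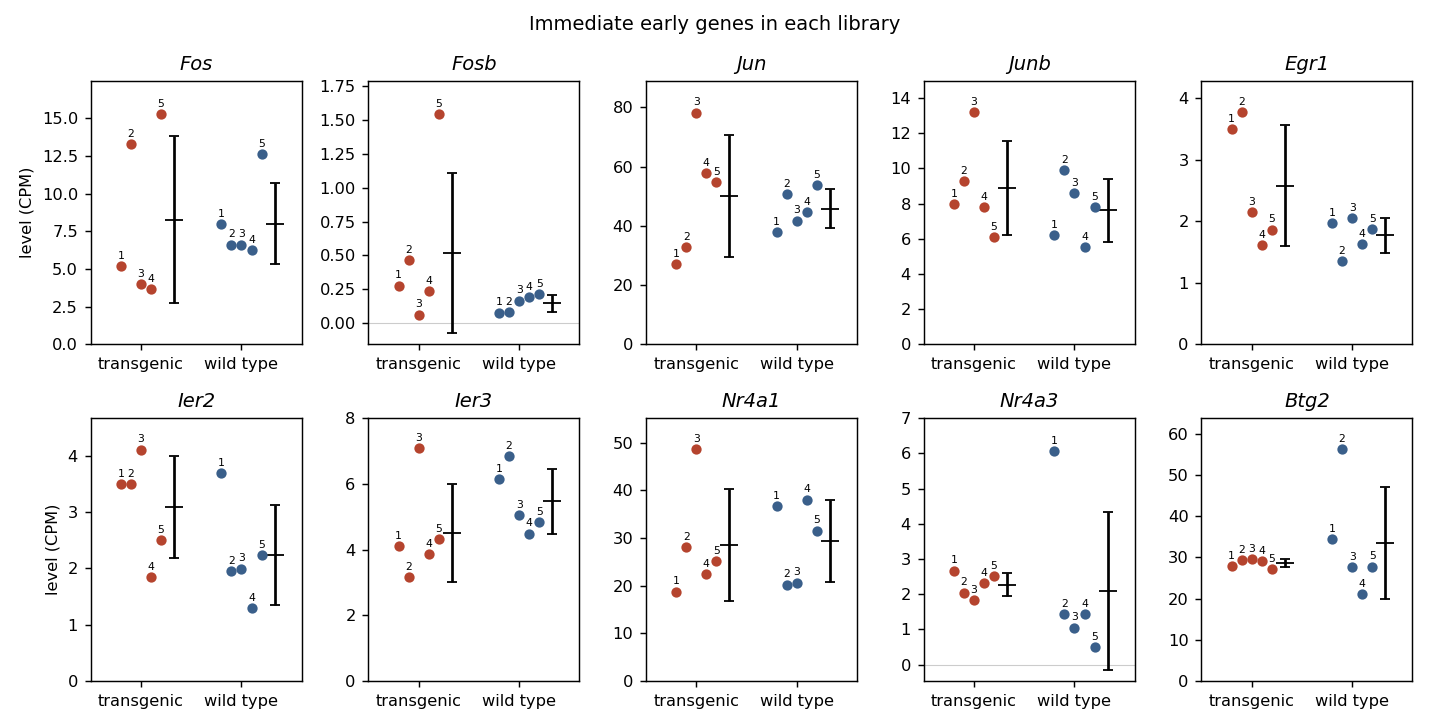
Level (CPM, vertical axis, linear, with 0 in each panel) of each of the 10 genes in 5 transgenic (red) and 5 wild-type (blue) libraries. Numbers are library numbers, the black dash is the group mean and the bar 1 SD (n = 5). The groups overlap in all 10 panels, and transgenic library 3 is highest for 5 genes.

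Fos, the founding member of the AP-1 family, lies on chromosome 12 from 85473890 to 85477273 on the plus strand (GRCm38, as are all gene positions here). Its level was 5.17, 13.3, 3.99, 3.64 and 15.2 CPM in transgenic libraries 1 to 5, against 7.95, 6.61, 6.60, 6.25 and 12.6 CPM in wild-type libraries 1 to 5. Transgenic libraries 2 and 5 and wild-type library 5 were high, and transgenic libraries 3 and 4 were the lowest of all, so the groups overlapped and the wild-type range lay within the transgenic one. Fos averaged 8.26 ± 5.55 CPM in the transgenic group and 8.01 ± 2.67 CPM in wild type (SD, n = 5 each). The log2 fold change was 0.05 ± 0.39 (SE; adjusted p = 0.967 in edgeR), and its 95% interval ran from -0.80 to 0.89. With the group labels permuted in every possible way, the exact two-sided p was 0.754.

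Fosb, another Fos protein, lies on chromosome 7 from 19302696 to 19310051 on the minus strand. It had 5, 10, 1, 5 and 24 counts in transgenic libraries 1 to 5, against 1, 1, 3, 3 and 3 counts in wild-type libraries. Transgenic library 5 held the most counts of the 10 libraries, and transgenic library 3 held as few as the lowest wild-type libraries. The level was 0.518 ± 0.591 CPM in the transgenic group and 0.148 ± 0.0634 CPM in wild type (SD, n = 5 each). Fitted without the filter on low counts, the log2 fold change was 1.68 ± 0.72 (SE; adjusted p = 0.233 in edgeR). The authors' deposited table gives 1.75 ± 0.80 (SE) with an adjusted p of 0.224 and an unadjusted p of 0.0298. The exact permutation p was 0.119. What size of difference could be detected from so few counts was not tested.

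Jun, the main partner of Fos proteins, lies on chromosome 4 from 95049034 to 95052222 on the minus strand. Its level was 27.2, 32.7, 78.3, 57.7 and 54.9 CPM in transgenic libraries, against 37.9, 50.7, 41.8, 44.6 and 53.9 CPM in wild type. The transgenic libraries fell both below and above the wild-type range, with libraries 1 and 2 the lowest and 3, 4 and 5 the highest of all. Jun averaged 50.2 ± 20.6 CPM in the transgenic group and 45.8 ± 6.51 CPM in wild type (SD, n = 5 each), and the log2 fold change was 0.13 ± 0.24 (SE; adjusted p = 0.842 in edgeR; exact permutation p = 0.881). Jun had a log2 fold change of -0.09 ± 0.21 (SE) without transgenic library 3. When transgenic libraries 1 and 2 were left out instead, it was 0.47 ± 0.16 (SE; adjusted p = 0.152 in edgeR). Exons of Jun share 232 bases with Junos, its antisense neighbour, whose log2 fold change was 0.15 (edgeR adjusted p = 0.799). Whether the counting used strand is not given in the sources used here. Reads of the pair therefore cannot be told apart.

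Junb, a Jun protein that is a weaker activator than Jun, lies on chromosome 8 from 84974484 to 84978718 on the minus strand. Its level was 7.95, 9.27, 13.2, 7.80 and 6.11 CPM in transgenic libraries, against 6.22, 9.91, 8.60, 5.53 and 7.80 CPM in wild type. Transgenic library 3 was the highest, and the other 4 transgenic libraries lay inside the wild-type range. The log2 fold change was 0.22 ± 0.21 (SE; adjusted p = 0.656 in edgeR; exact permutation p = 0.429). Junb shares 173 exon bases with Prdx2, a peroxidase gene, whose log2 fold change was 0.15 (edgeR adjusted p = 0.661).

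The other AP-1 partners on a list of 16 genes, which holds Fos, Jun, ATF and MAF relatives, gave 0 calls among 12 tested, beside 5.33% of all genes tested. Their median log2 fold change was 0.02, and 3 had an unadjusted p under 0.05, a count that the 18.1% over all genes tested puts close to the background. The lowest p was that of Maf, a basic leucine zipper factor, at 56.1 ± 7.25 CPM in the transgenic group and 71.2 ± 15.6 CPM in wild type (SD, n = 5 each; log2 fold change -0.34 ± 0.15 SE; adjusted p = 0.248 in edgeR). Next came Jdp2, a repressor of AP-1, at 4.71 ± 1.198 CPM in the transgenic group and 3.32 ± 0.885 CPM in wild type, with a log2 fold change of 0.50 ± 0.22 (SE; adjusted p = 0.254 in edgeR). The third, named after its values were seen, was Atf3, a stress-induced partner of Jun, at 4.02 ± 2.48 CPM in the transgenic group and 2.22 ± 0.936 CPM in wild type, with an edgeR adjusted p of 0.265. Of the closest relatives of the members, Fosl2 and Jund are given, named after their values were seen. Fosl2 averaged 25.7 ± 3.20 CPM in the transgenic group and 26.5 ± 3.82 CPM in wild type, and its log2 fold change was -0.04 ± 0.12 (SE; adjusted p = 0.898 in edgeR). Jund averaged 12.9 ± 4.21 CPM in the transgenic group and 10.9 ± 2.77 CPM in wild type, and its log2 fold change was 0.25 ± 0.21 (SE; adjusted p = 0.613 in edgeR).

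Egr1, a zinc finger activator of growth response genes, lies on chromosome 18 from 34859823 to 34864984 on the plus strand. Its level was 3.50, 3.77, 2.15, 1.61 and 1.87 CPM in transgenic libraries, against 1.97, 1.36, 2.05, 1.63 and 1.88 CPM in wild type. Transgenic libraries 1 and 2 stood above all others, transgenic library 3 was just above the wild-type libraries, and transgenic libraries 4 and 5 lay within the wild-type range. Egr1 averaged 2.58 ± 0.989 CPM in the transgenic group and 1.78 ± 0.284 CPM in wild type (SD, n = 5 each). Its log2 fold change, 0.54 ± 0.26 (SE), had the lowest p of the 9 members that passed the filter (adjusted p = 0.309 in edgeR), with a 95% interval from -0.04 to 1.11. The exact permutation p was 0.159. Without transgenic libraries 1 and 2 the log2 fold change was 0.06 ± 0.24 (SE; adjusted p = 0.927 in edgeR), and without transgenic libraries 4 and 5 it was 0.82 ± 0.25 (SE; adjusted p = 0.108 in edgeR). Transgenic libraries 1 and 2 were also those with the most Ptprc, the pan-leukocyte marker, picked after its values were seen, at 41.9 and 60.5 CPM, against 7.34 to 16.6 CPM in the other transgenic libraries and 7.58 to 14.0 CPM in wild type. Over the 13 leukocyte markers reported, 0 of 10 tested were called, beside 5.33% of all genes tested. The sum of the 13, which includes Ptprc, was 101 to 271 CPM in transgenic and 91.1 to 189 CPM in wild-type libraries. Transgenic library 1 had a sum of 238 CPM and transgenic library 2 one of 271 CPM, and Cd3e, S100a8 and S100a9 were at 0 in some libraries. Fcgr1 and Tyrobp, the 2 markers of that list with the lowest p in edgeR, did not single out transgenic libraries 1 and 2. Fcgr1 was at 1.39, 1.40, 1.46, 1.37 and 0.643 CPM in transgenic libraries 1 to 5. Tyrobp was at 5.73, 7.36, 6.27, 6.48 and 2.51 CPM in the same libraries. Adipocyte markers also summed highest of their group in transgenic libraries 1 and 2, at 1028 and 692 CPM. They summed to 200 to 400 CPM in the other transgenic libraries and to 229 to 1231 CPM in wild type. The part of leukocyte or adipocyte RNA in the Egr1 level was not tested.

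Nab2, a corepressor that binds EGR proteins and is itself known as an EGR target, was higher in the transgenic group. It was at 4.50, 5.40, 6.71, 6.43 and 6.76 CPM in transgenic libraries, against 1.58, 1.69, 1.66, 1.76 and 1.95 CPM in wild type. Every transgenic library was above every wild-type library, and transgenic libraries 1 and 2, the highest for Egr1, were the lowest of their group for Nab2. It averaged 5.96 ± 0.980 CPM in the transgenic group and 1.73 ± 0.140 CPM in wild type (SD, n = 5 each), and the log2 fold change was 1.78 ± 0.17 (SE; adjusted p = 4.89e-05 in edgeR). That is 3.43-fold, with a 95% interval of 2.68 to 4.41. The exact permutation p was 0.00794, the smallest that 5 against 5 libraries can give. Nab2 lies on chromosome 10 from 127660918 to 127668568 on the minus strand and shares exon bases with 3 genes. It shares 40 with Stat6, whose log2 fold change was -0.07, and 151 with Nemp1, at 0.36 ± 0.17 (SE; adjusted p = 0.295 in edgeR). It shares 1050 with Gm16229, which was not analysed here, so its part in the counts of Nab2 was not tested.

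**Figure D2:**
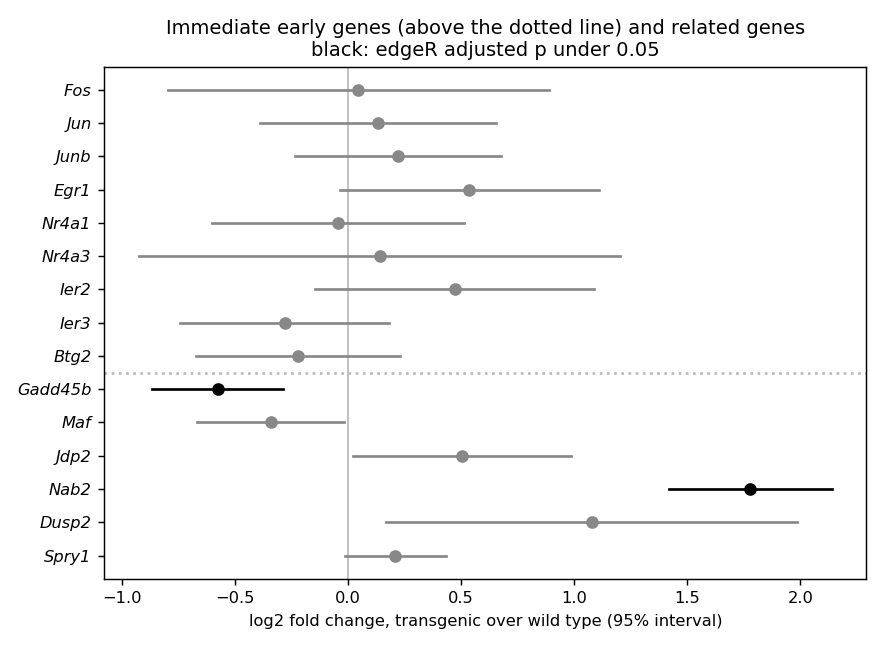
Log2 fold change (horizontal axis, transgenic over wild type) of the 9 immediate early genes tested, above the dotted line, and of 6 related genes below it. Points are edgeR estimates, bars are 95% intervals, and black marks an adjusted p under 0.05. All 9 intervals above the line cross 0, and Gadd45b and Nab2 are the black points.

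Nab2 was the single call among 29 upstream regulators tested, a list of SRF, CREB, MEF2, MAP kinase and NAB genes. The list gave 1 higher and 0 lower, beside 4.28% and 1.05% of all genes tested, a count close to the background share. The median log2 fold change of that list was -0.10, and 5 genes had an unadjusted p under 0.05, a share near the 18.1% of all genes tested. Besides Nab2 these were Crem, Crtc1, Mapk8 and Mapk9, named after their values were seen. Crtc1, a coactivator of CREB, was at 3.41 ± 0.693 CPM in the transgenic group and 5.28 ± 1.27 CPM in wild type (log2 fold change -0.63 ± 0.20 SE; adjusted p = 0.0948 in edgeR). Mapk8, a kinase of Jun, was at 30.5 ± 4.36 CPM in the transgenic group and 40.7 ± 1.88 CPM in wild type (log2 fold change -0.42 ± 0.11 SE; adjusted p = 0.0547 in edgeR). Mapk9, another Jun kinase, had a log2 fold change of -0.30 ± 0.11 (SE; adjusted p = 0.147 in edgeR), and Crem, a CREB relative, one of -0.28 ± 0.13 (SE; adjusted p = 0.266 in edgeR). None of these 4 passed the threshold. Srf and Creb1 are given as the factors named in the background, also chosen after their values were seen. Srf averaged 34.4 ± 8.82 CPM in the transgenic group and 30.7 ± 3.01 CPM in wild type (SD, n = 5 each), with an edgeR adjusted p of 0.656. Creb1 averaged 32.7 ± 8.03 CPM in the transgenic group and 34.3 ± 2.89 CPM in wild type, with an edgeR adjusted p of 0.883.

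Nr4a1, a nuclear receptor known to regulate glucose use in muscle, lies on chromosome 15 from 101254269 to 101274795 on the plus strand. Its level was 18.7, 28.1, 48.7, 22.4 and 25.1 CPM in transgenic libraries, against 36.8, 20.2, 20.6, 38.1 and 31.6 CPM in wild type. Transgenic library 3 was the highest and transgenic library 1 the lowest of all 10. Nr4a1 averaged 28.6 ± 11.7 CPM in the transgenic group and 29.5 ± 8.58 CPM in wild type (SD, n = 5 each), and the log2 fold change was -0.04 ± 0.26 (SE; adjusted p = 0.953 in edgeR; exact permutation p = 0.817).

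Nr4a3, a close relative of Nr4a1, lies on chromosome 4 from 48045153 to 48086447 on the plus strand. Its level was 2.67, 2.05, 1.84, 2.32 and 2.51 CPM in transgenic libraries, against 6.06, 1.44, 1.05, 1.43 and 0.505 CPM in wild type. All 5 transgenic libraries lay above 4 of the wild-type libraries and below wild-type library 1. Nr4a3 averaged 2.28 ± 0.338 CPM in the transgenic group and 2.099 ± 2.25 CPM in wild type (SD, n = 5 each), and its log2 fold change was 0.14 ± 0.49 (SE; adjusted p = 0.921 in edgeR), with a 95% interval from -0.93 to 1.203. Without wild-type library 1 the log2 fold change was 1.0 ± 0.29 (SE; adjusted p = 0.0803 in edgeR). The exact permutation p with all libraries was 0.373. The third receptor, Nr4a2, added after its values were seen, averaged 1.0 ± 0.442 CPM in the transgenic group and 1.06 ± 0.387 CPM in wild type, with an edgeR adjusted p of 0.935.

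Ier2, a nuclear protein, lies on chromosome 8 from 84661331 to 84662852 on the minus strand. Its level was 3.50, 3.49, 4.11, 1.84 and 2.51 CPM in transgenic libraries, against 3.70, 1.95, 2.0, 1.30 and 2.24 CPM in wild type. Transgenic libraries 1 to 3 and wild-type library 1 were high, and the groups overlapped. The log2 fold change was 0.47 ± 0.29 (SE; adjusted p = 0.427 in edgeR; exact permutation p = 0.167), with a 95% interval from -0.15 to 1.09. Without transgenic libraries 1 and 2 it was 0.32 ± 0.35, and without transgenic libraries 4 and 5 it was 0.73 ± 0.28 (SE; adjusted p = 0.237 in edgeR). Without wild-type library 1 it was 0.69 ± 0.27 (SE; adjusted p = 0.200 in edgeR).

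Ier3, a stress-induced regulator of cell survival, lies on chromosome 17 from 35821684 to 35822923 on the plus strand. Its level was 4.12, 3.17, 7.09, 3.88 and 4.31 CPM in transgenic libraries, against 6.14, 6.86, 5.05, 4.49 and 4.84 CPM in wild type. Transgenic libraries 1, 2, 4 and 5 lay below all wild-type libraries, and transgenic library 3 above all of them. The log2 fold change was -0.28 ± 0.21 (SE; adjusted p = 0.551 in edgeR; exact permutation p = 0.175), and without transgenic library 3 it was -0.50 ± 0.16 (SE; adjusted p = 0.0849 in edgeR).

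Btg2, an antiproliferative protein that also promotes the decay of messenger RNA, lies on chromosome 1 from 134075170 to 134079120 on the minus strand. Its level was 28.0, 29.3, 29.7, 29.1 and 27.2 CPM in transgenic libraries, against 34.5, 56.3, 27.6, 21.1 and 27.8 CPM in wild type. The 5 transgenic libraries lay close together, inside the wild-type range, and wild-type library 2 was the highest of all. Btg2 averaged 28.6 ± 1.04 CPM in the transgenic group and 33.5 ± 13.6 CPM in wild type (SD, n = 5 each), and the log2 fold change was -0.22 ± 0.21 (SE; adjusted p = 0.649 in edgeR; exact permutation p = 0.698). Without wild-type library 2 it was 0.01 ± 0.13. Its relative Btg1, chosen after its values were seen, had an edgeR adjusted p of 0.142, at 33.3 ± 5.02 CPM in the transgenic group and 25.1 ± 4.77 CPM in wild type.

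Among 46 other immediate early genes, of which 42 were tested, 1 fell and 0 rose, beside 1.05% and 4.28% of all genes tested. The median log2 fold change of these 42 was 0.07, and 5 had an unadjusted p under 0.05, beside 18.1% of all genes tested. The gene that fell was Gadd45b, a stress-induced activator of p38 and JNK signalling that lies on chromosome 10 from 80930073 to 80932204. Its level was 13.0, 12.8, 10.7, 8.41 and 11.8 CPM in transgenic libraries, against 17.1, 13.9, 18.1, 16.5 and 18.9 CPM in wild type. Every transgenic library was below every wild-type library. The log2 fold change was -0.58 ± 0.13 (SE; adjusted p = 0.0225 in edgeR), and the exact permutation p was 0.00794, the smallest possible. DESeq2 gave an adjusted p of 0.00217. The call was lost without wild-type library 3 (edgeR adjusted p = 0.0517), without wild-type library 5 (0.0662), and without transgenic libraries 4 and 5, where the log2 fold change was -0.48 ± 0.14 (edgeR adjusted p = 0.110).

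The other 4 genes of that list with an unadjusted p under 0.05, named after their values were seen, were Btg1, Plk2, Plk3 and Atf3. Plk2, a polo-like kinase, averaged 7.30 ± 2.41 CPM in the transgenic group and 10.6 ± 1.65 CPM in wild type (SD, n = 5 each). Its log2 fold change was -0.54 ± 0.20 (SE; adjusted p = 0.167 in edgeR). Without transgenic library 2 it passed the threshold at -0.73 ± 0.18 (SE; adjusted p = 0.0399 in edgeR). Without transgenic libraries 1 and 2 it passed at -0.91 ± 0.17 (SE; adjusted p = 0.00857 in edgeR). Plk3, a relative of Plk2, averaged 1.06 ± 0.416 CPM in the transgenic group and 0.637 ± 0.195 CPM in wild type, with an edgeR adjusted p of 0.269. Klf4, a zinc finger factor, and Dusp1, a MAP kinase phosphatase, are given as classical members of the response, also chosen after their values were seen. Klf4 averaged 13.3 ± 2.25 CPM in the transgenic group and 13.4 ± 2.42 CPM in wild type, and Dusp1 averaged 43.04 ± 14.2 CPM in the transgenic group and 41.3 ± 10.7 CPM in wild type (SD, n = 5 each). This list shares 6 genes with the AP-1 partners, 2 with the feedback genes and 2 with the stress genes.

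The feedback genes that switch off MAP kinase signalling, the dual-specificity phosphatases and Sprouty proteins, gave 0 calls among 13 tested, beside 5.33% of all genes tested. Their median log2 fold change was 0.06, and 1 had an unadjusted p under 0.05 (18.1% of all genes did). That gene was Dusp2, a nuclear MAP kinase phosphatase. Its level was 1.72, 2.096, 0.823, 0.614 and 0.515 CPM in transgenic libraries, against 0.394, 0.424, 0.777, 0.455 and 0.650 CPM in wild type. Transgenic libraries 1 and 2 stood apart, the same libraries as for Egr1 and for Ptprc, a leukocyte marker picked after its values were seen. The leukocyte markers Fcgr1 and Tyrobp did not single out these libraries. The Dusp2 log2 fold change was 1.078 ± 0.42 (SE; adjusted p = 0.187 in edgeR). It was 0.23 ± 0.35 without transgenic libraries 1 and 2, and 1.495 ± 0.37 without transgenic libraries 4 and 5 (edgeR adjusted p = 0.0459). Adipocyte markers also summed highest of their group in transgenic libraries 1 and 2. The part of leukocyte or adipocyte RNA in Dusp2 was not tested. Spry1, an inhibitor of receptor signalling, had a log2 fold change of 0.21 ± 0.10 (SE; adjusted p = 0.315 in edgeR).

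Genes of the heat shock and glucocorticoid responses gave 0 calls among 14 tested, beside 5.33% of all genes tested. Their median log2 fold change was 0.09, and 1 had an unadjusted p under 0.05 (18.1% of all genes did). That gene, Tsc22d3, which glucocorticoids induce, averaged 313 ± 118 CPM in the transgenic group and 203 ± 25.6 CPM in wild type (SD, n = 5 each), and the log2 fold change was 0.63 ± 0.22 (SE; adjusted p = 0.129 in edgeR). Without transgenic libraries 1 and 2 it was 0.89 ± 0.19 (SE; adjusted p = 0.0156 in edgeR). Fkbp5, another glucocorticoid target, was at 80.4 ± 13.8 CPM in the transgenic group and 104 ± 27.3 CPM in wild type (edgeR adjusted p = 0.293).

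Markers of other cells moved with the groups in some lists. Of 8 satellite cell markers, 4 rose, beside 4.28% of all genes tested. The sum of the 8 was 81.1 to 107 CPM in transgenic libraries and 53.9 to 73.7 CPM in wild type. Of 13 hepatocyte markers tested, 12 rose, beside the same 4.28%, with sums of 522 to 6104 CPM in transgenic and 166 to 281 CPM in wild-type libraries. Transgenic library 5, the highest for Fos and Fosb, had the highest hepatocyte sum. The other 9 marker lists, fibres and leukocytes included, are those without a call, so their 0 calls over 66 genes tested follow from that choice. Of these 66 genes, 4 had an unadjusted p under 0.05 in edgeR (18.1% of all genes tested did). The same choice lowers that share, so nothing is read from it. What these transcripts contribute to the member levels was not tested.

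The members differed widely in level. Per kilobase of exon, the mean CPM over the 10 libraries was 15.04 for Jun, 11.3 for Btg2 and 8.27 for Nr4a1. Below them came Ier3 at 4.42, Junb at 3.58 and Fos at 3.46 CPM per kilobase. Ier2 was at 1.75, Egr1 at 0.486, Nr4a3 at 0.365 and Fosb at 0.0533 CPM per kilobase. Between neighbours in this order the ranges over libraries overlapped, except for Ier2 above Egr1. Jun exceeded Btg2 in 6 of 10 libraries and Junb exceeded Fos in 5, so neither order is resolved. Egr1 exceeded Nr4a3 in 7 libraries, and Nr4a3 exceeded Fosb in 10 of 10.

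The spread among libraries was above the median of all genes for every member tested, though not above the trend at the same level for every one. EdgeR's dispersion, whose square root is the coefficient of variation between libraries beyond counting error, was above the median of all genes tested in 9 of 9 members. That coefficient was 0.524 for Nr4a3 and 0.423 for Fos, at the 97.8 and 96.4 percentiles of all genes. It was 0.297 for Ier2, 0.289 for Nr4a1, 0.275 for Egr1 and 0.274 for Jun, and 0.239, 0.233 and 0.232 for Btg2, Junb and Ier3, the lowest at the 73.8 percentile. Low genes have higher dispersions, so the ratio to the fitted trend at the same level is also given. It was 4.06 for Fos, 3.19 for Nr4a3, 2.25 for Nr4a1 and 2.01 for Jun, 1.53 for Btg2, 1.24 for Junb and 1.09 for Ier2. Ier3 and Egr1, at 0.925 and 0.881, lay below the trend and above the median ratio of all genes, 0.712. The other immediate early genes had a median percentile of 77.5, with 30 of 42 above the median of all genes, and the upstream regulators 47.4, with 11 of 29 above it. The percentiles of these lists are not corrected for level, and the part of level in their difference was not tested. All values of spread given here are descriptions, and no test was made of them.

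**Figure D3:**
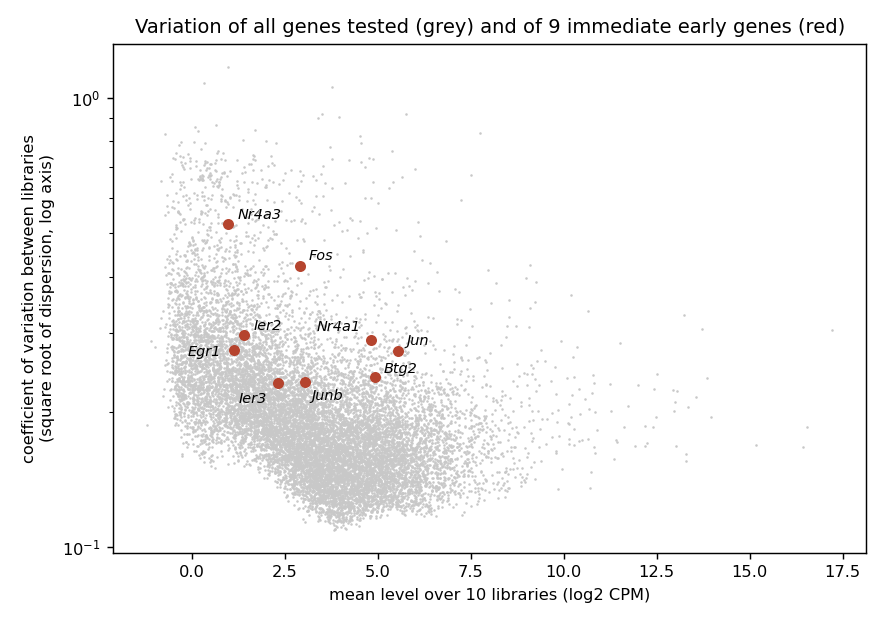
Coefficient of variation between libraries (vertical axis, log scale) against mean level (horizontal axis, log2 CPM) for all 13338 genes tested, in grey, and 9 immediate early genes, in red. Fos and Nr4a3 stand out among the red points, with coefficients of 0.423 and 0.524.

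The highest library exceeded the lowest 24.4-fold for Fosb, 12.0-fold for Nr4a3 and 4.19-fold for Fos. For the other 7 members the ratio ran from 2.24 for Ier3 to 3.16 for Ier2. Within groups, the SD of log2 CPM was 0.96 in the transgenic group and 0.41 in wild type for Fos. It was 0.63 in the transgenic group and 0.21 in wild type for Jun, and 0.52 in the transgenic group and 0.23 in wild type for Egr1. The reverse held for Btg2, at 0.05 in the transgenic group and 0.53 in wild type, and for Nr4a3, at 0.21 in the transgenic group and 1.21 in wild type. The SD was larger in the transgenic group for 7 members and smaller for 3, and these differences in spread were not tested. Transgenic library 3 was the highest for 5 members, Jun, Junb, Ier2, Ier3 and Nr4a1, while it was among the lowest for Fos and Fosb. It also stood apart in other genes, and their part in the member levels was not tested. Acta1, skeletal muscle actin, was at 25249 CPM in it, against 10977 to 15377 CPM in the other transgenic libraries and 12995 to 16660 CPM in wild type. The fibre markers did not all go this way. Of all 10 libraries, Ckm was also highest in it, at 13646.5 CPM, while Ttn was lowest in it, at 63494 CPM. The whole fibre list summed to 180512 CPM in it, within the 156447 to 190257 CPM of the other transgenic libraries. The 4 tendon markers in the table summed to 275 CPM in it, against 21.6 to 62.3 CPM in the other transgenic libraries and 38.04 to 163 CPM in wild type. The heat shock and glucocorticoid genes summed to 1454 CPM in it, against 841 to 1277 CPM in the other transgenic libraries and 831 to 1150 CPM in wild type. Transgenic library 5 was the highest for Fos and Fosb, and wild-type library 4 was the lowest for 3 members.

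**Figure D4:**
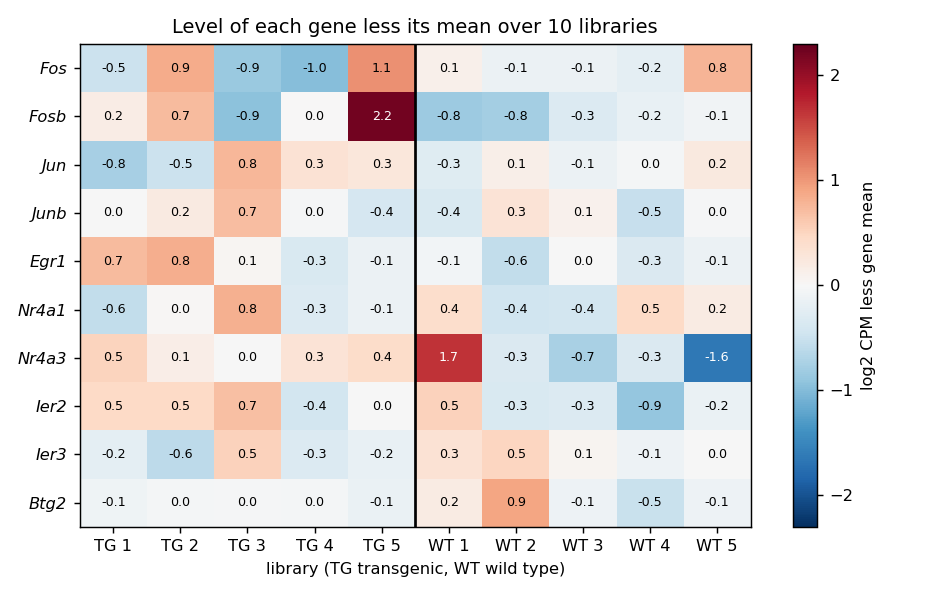
Level of each gene (rows) in each library (columns, 5 transgenic left of 5 wild type) as log2 CPM less the mean of that gene over the 10 libraries. Red is above and blue below the mean. Neither side of the line is uniformly red or blue, and high values sit in different libraries for different genes.

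No common pattern of the members across libraries was detected. Over the 45 pairs, Pearson's r of log2 CPM across the 10 libraries had a median of 0.06 and ran from -0.66 to 0.66, with 25 positive and 20 negative. After the group means were subtracted the median r was 0.04, with 23 positive. In permutation tests with 100000 resamples, 4 pairs had an unadjusted p under 0.05 and 0 had a Benjamini-Hochberg adjusted p under 0.05, by r (lowest 0.528) or by Spearman's rho (lowest 0.0580).

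Egr1 and Ier2 had r = 0.66 (permutation p = 0.0380, adjusted p = 0.528) and rho = 0.73 (permutation p = 0.0200, adjusted p = 0.449). Without the 2 libraries farthest from the Egr1 median, r was 0.65. Fos and Fosb had r = 0.63 (permutation p = 0.0434, adjusted p = 0.528) and rho = 0.38 (permutation p = 0.278, adjusted p = 0.932). Their r was 0.03 without the 2 libraries farthest from the Fos median, so the relation rests on those libraries. Jun and Egr1 had r = -0.64 (permutation p = 0.0469, adjusted p = 0.528), rho = -0.50 (permutation p = 0.145, adjusted p = 0.932) and r = -0.75 without the 2 libraries farthest from the Jun median. Fosb and Ier3 had r = -0.66 (permutation p = 0.0329, adjusted p = 0.528) and rho = -0.89 (permutation p = 0.00129, adjusted p = 0.0580). For this pair r was -0.97 without transgenic library 5 (exact permutation adjusted p = 0.00397, n = 9), but Fosb then rests on 1 to 10 counts per library. The nuclear receptors Nr4a1 and Nr4a3 had r = 0.06 (permutation p = 0.863, adjusted p = 0.954), rho = -0.14 (permutation p = 0.706, adjusted p = 0.936) and r = 0.19 without the 2 libraries farthest from the Nr4a1 median. With the group means subtracted, r over all 10 libraries was 0.54 for Egr1 and Ier2, 0.79 for Fos and Fosb and -0.78 for Jun and Egr1. It was -0.56 for Fosb and Ier3 and 0.10 for Nr4a1 and Nr4a3.

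**Figure D5:**
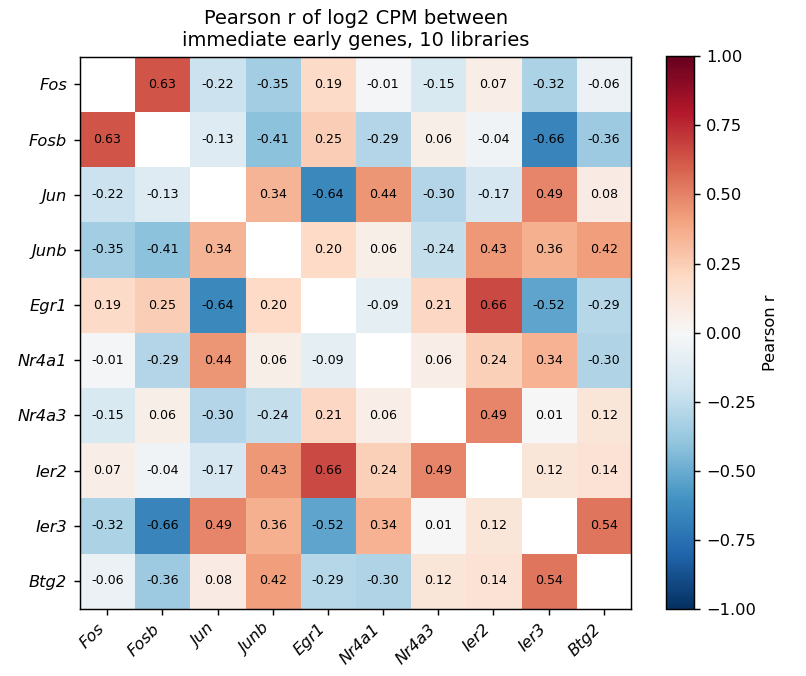
Pearson's r of log2 CPM across the 10 libraries for each of the 45 pairs of immediate early genes, from -1 (blue) to 1 (red). Positive and negative values are mixed, with a median of 0.06, and 0 of 45 had an adjusted p under 0.05.

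The genes whose pattern was most like the mean of the 10 members, each less its group mean, were sought among 12537 genes with a mean of at least 1 CPM. They were Pxdc1 (r = 0.97), Ddt (0.93), Sdk1 (0.93), Tmem82 (0.92) and Mov10 (0.89), as a description over 10 libraries that were also used to choose them. With single members their r ran from -0.10 to 0.78. Pxdc1 rose, with a log2 fold change of 0.63 ± 0.14 (SE; adjusted p = 0.0175 in edgeR), and so did Tmem82, with 1.42 ± 0.20 (SE; adjusted p = 0.00146 in edgeR). The call of Pxdc1 was lost without wild-type library 2, 3 or 4, with edgeR adjusted p from 0.0517 to 0.0664, and without transgenic libraries 1 and 2 (0.0606). The other 3 did not pass the threshold. With Fosb left out of the mean, 1 of the 5, Pxdc1, was among the top 5 again, so the list depends on a gene with few counts.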

How the data were processed

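RNA was isolated from muscle with DNase treatment, and reads were counted per gene in 5 transgenic and 5 wild-type libraries. The submitters' processing notes name TopHat2 2.1 and Bowtie2 2.2.6, then SAMtools 1.2 and HTSeq 0.6.1, and DESeq2 1.10, on GRCm38.p4. How reads were assigned to strands and which gene models were counted were not given in the sources used here. The deposited values used for all tests are raw whole-number counts. Per the file headers the same table lists the authors' mean signal of each gene, a log2 fold change and its standard error, the Wald score, and p-values.

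The columns name groups, not mice, and replicates are the separate mice that the series describes. After filterByExpr and TMM scaling, edgeR 4.0.16 in R 4.3.3 (glmQLFit, then glmQLFTest) compared transgenic with wild-type counts without covariates, with Benjamini-Hochberg adjustment over 13338 genes. Log2 CPM used a prior count of 2, and the script was tested on simulated counts. Libraries were compared in 20 pairs within groups, and each pair differed by more than counting noise (chi-square over degrees of freedom 17.5 or more). Lars2, Gm15564 and Gm15662 together took 33.9, 29.3, 19.9, 18.2 and 14.3% of wild-type libraries 1 to 5. Their share was 13.8, 13.6, 17.3, 9.62 and 16.8% of transgenic libraries 1 to 5. TMM factors did not overlap by group, at 0.814 to 1.01 for wild type and 1.02 to 1.16 for transgenic. With the 3 genes left out, 0 members passed the threshold in edgeR, and the median log2 fold change of the members was 0.11. Whether this difference in composition affects the fold changes in other ways was not tested.

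The 10 genes and the other lists were chosen with earlier results of these data known. The rule for named genes takes the 10 genes, the called genes of each other list (up to 4, or the 2 with the lowest p where none was called), the 5 genes of most similar pattern and Zfp407. Genes named beyond it were chosen after their values were seen, or because they overlap a named gene. For the marker lists, counts and sums are given. Positions come from GENCODE M21, and exon lengths are unions over its transcripts. Alternatives were RLE size factors, DESeq2 1.42.0, other filters on low counts, a robust fit, the 3 rows named above left out, the authors' p-values, and libraries left out singly or in pairs. A leukocyte marker was taken off its list after the values were seen, for a reason other than its values, and is not reported here. This changed no number of genes tested or called.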

Additional observations from a re-analysis of the deposited data

Results flagged for a closer look

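In 3 of the 24 groups examined, which are the 10 members, Gadd45b and Nab2 in each genotype, the highest library lay farther from its neighbour than Dixon's 95% limit for 5 values allows. Chance marks about 1 in 20 groups where values are normally distributed, and its rate on the CPM scale was not tested. The test was first run on log2 CPM, where it marked 0 of 24 groups, and the scale was changed to CPM, the unit of the text, after that result was seen.

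Fosb was at 1.54 CPM in transgenic library 5, against 0.0633 to 0.466 CPM in the other 4 transgenic libraries. This library also had the highest Fos level, 15.2 CPM. Fos was at 12.6 CPM in wild-type library 5, against 6.25 to 7.95 CPM in the other 4 wild-type libraries. Nr4a3 was at 6.06 CPM in wild-type library 1, against 0.505 to 1.44 CPM in the other 4 wild-type libraries. The Nr4a3 log2 fold change was 0.14 ± 0.49 with it and 1.0 ± 0.29 without it (SE; edgeR adjusted p = 0.0803 without it). The causes of these 3 values were not tested.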

How the results depend on the processing

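The count of members past the threshold was 0 in each alternative run, edgeR, DESeq2 and the authors' deposited table alike. The count over all genes was 711 with edgeR, 1230 with DESeq2 and 1158 in the authors' deposited table. It ran from 450 (without wild-type library 3) to 1116 (without transgenic library 3) when single libraries were left out. The other immediate early genes past the threshold numbered 0 without transgenic libraries 4 and 5 and 2 without transgenic libraries 1 and 2, and 0 to 2 without single libraries. The median log2 fold change of the members ran from -0.061 to 0.195 without single libraries, where the lowest was without wild-type library 3. The pairs past the threshold numbered 1, Fosb and Ier3, without the 2 libraries farthest from the median, and 0 to 1 without single libraries.

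Directions near 0 turned. Without transgenic libraries 4 and 5 the log2 fold change was 0.11 for Nr4a1 and -0.084 for Fos, and without transgenic libraries 1 and 2 it was 0.11 for Nr4a1 and -0.084 for Fos. Without single libraries it ran from -0.29 to 0.27 for Fos, -0.32 to 0.074 for Nr4a1, -0.12 to 1.0 for Nr4a3, -0.087 to 0.29 for Jun, -0.38 to 0.011 for Btg2 and -0.062 to 0.17 for Ddt. Of 162 fits of members in alternatives, 18 turned the sign, in 5 members. Pxdc1 lost its call without transgenic libraries 1 and 2 (edgeR adjusted p = 0.0606) and without wild-type libraries 2, 3 or 4 singly, and Nab2 held its call in each alternative run, from 1.71 to 1.86 without single libraries. The causes were not tested, beyond the smaller number of libraries where some were left out. The list of genes with the pattern most like the members shared 1 of 5 genes with the list made without Fosb, an alternative chosen after seeing the data. No paired analysis was possible because the columns name no mouse and the labels give each mouse a number of its own. Counts were fewest for Fosb, at 1 to 24 per library, and what difference could be detected there was not tested.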
